A study of Mus musculus with 136 samples.

Results

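The 6 Iroquois homeobox genes Irx1 to Irx6 were examined in mouse embryonic stem cells (ESCs), out of 21883 protein-coding genes. Each gene was taken from the mm10 annotation with 2500 bp added on both sides, and every deposited peak or region that overlapped this window by at least 1 bp was assigned to it. Irx1, Irx2 and Irx4 lie on chromosome 13 and Irx3, Irx5 and Irx6 on chromosome 8.

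All cells were male ESCs of line E14JU, of 129/Ola background, grown on gelatin with serum and leukaemia inhibitory factor (LIF). WT clone 410 was set beside MCM2-2A clones 439 and 442, in which the histone-binding domain of MCM2 is mutated. MCM2 is a subunit of the replicative helicase and hands parental histones on to the lagging strand. Each of these lines is 1 clone, so clone and genotype cannot be told apart for WT. SUZ12 chromatin immunoprecipitation and sequencing (ChIP-seq) was available as 1 peak list for each of the 3 clones, each made from 3 replicates. The histone mark lists used here came from WT clone 410 alone, and the mark samples of other clones were not analysed here. Its original experiment gave lists of H3K4me3, H3K27ac, H3K27me3 and H3K9me3 (2 replicates combined), and its rescue experiment gave lists of the same marks apart from H3K27ac (3 replicates combined). These 10 lists drew on 26 of the 136 samples of the series, and the other samples were not analysed here.

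Each list gave 1 value per peak with the replicates combined and no read counts, so the depth is unknown and no spread between replicates could be had. With 1 WT list and 2 mutant lists an exact permutation test cannot give a p below 0.333. Values are therefore given side by side without a test, and counts of Irx genes are read against the percent of all genes that met the same rule. Window lengths were not matched between the Irx genes and all genes, and a longer window can hold more peaks. The SUZ12 lists held 6298 peaks in WT, 7571 in clone 439 and 7840 in clone 442, and the mark lists held between 40376 and 128247 entries. As a check of the cell type, all 8 ESC marker genes, Pou5f1, Nanog and Sox2 among them, had both H3K4me3 and H3K27ac, and 2 of them (Klf4 and Esrrb) had SUZ12. Of 8 markers of differentiated cells, 7 had SUZ12 in each clone and 4 had H3K27ac, where the strongest H3K27ac peak reached a fold enrichment of 4.20. H3K27ac reached 28.5 at Pou5f1 and 38.4 at Nanog.

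Iroquois proteins are homeodomain transcription factors of the TALE class, named for extra residues in the first loop of the homeodomain. In vertebrates their genes sit in a pair of clusters with matching order, and they pattern the neural tube, heart, limb, lung, kidney and retina. In pluripotent cells developmental regulators of this kind are classic targets of Polycomb repressive complex 2 (PRC2), of which SUZ12 is a core subunit and which places the repressive mark H3K27me3. Such promoters often also carry H3K4me3, a mark of CpG-rich promoters, and are then called bivalent. H3K27ac marks active promoters and enhancers, and H3K9me3 marks heterochromatin.

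The promoters of Irx2, Irx3 and Irx4 were matched in RefSeq (GRCm38.p6, the assembly of mm10), and the 250 bases before each start site are shown because each lay entirely under SUZ12 in every clone. The matched start sites of Irx2 (72628820) and Irx4 (73260497) lie inside the gene bodies used for the windows, which begin at 72624430 and 73259589. CpG dinucleotides, the feature shared by Polycomb target promoters, are in capitals. The stretches are chr13:72628570-72628819 on the plus strand for Irx2, chr8:91801655-91801904 on the minus strand for Irx3 and chr13:73260247-73260496 on the plus strand for Irx4, each written 5′ to 3′.
Irx2: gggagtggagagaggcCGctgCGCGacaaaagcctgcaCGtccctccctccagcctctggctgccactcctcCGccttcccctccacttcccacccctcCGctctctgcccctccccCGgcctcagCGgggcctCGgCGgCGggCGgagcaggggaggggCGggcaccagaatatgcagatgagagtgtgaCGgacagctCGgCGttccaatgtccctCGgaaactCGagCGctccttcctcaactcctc
Irx3: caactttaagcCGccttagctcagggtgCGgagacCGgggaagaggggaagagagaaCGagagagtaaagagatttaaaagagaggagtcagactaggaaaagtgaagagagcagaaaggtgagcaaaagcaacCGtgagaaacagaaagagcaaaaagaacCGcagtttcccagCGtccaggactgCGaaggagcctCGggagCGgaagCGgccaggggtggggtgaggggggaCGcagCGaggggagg
Irx4: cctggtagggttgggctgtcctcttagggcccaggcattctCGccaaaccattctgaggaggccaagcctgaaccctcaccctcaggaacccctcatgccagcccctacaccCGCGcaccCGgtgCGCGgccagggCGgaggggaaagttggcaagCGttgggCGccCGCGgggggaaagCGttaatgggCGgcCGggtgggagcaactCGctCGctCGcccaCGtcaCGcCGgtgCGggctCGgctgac
The Irx2 stretch held 19 CpG dinucleotides at a GC content of 68.4%, Irx3 held 13 at 56.0%, and Irx4 held 22 at 68.8%. Over 32851 RefSeq promoters the median was 6 CpG and 52.4% GC. Irx3 had the fewest of the 3, and 31.5% of all promoters had as many CpG or more, against 19.7% for Irx2 and 14.8% for Irx4. The palindrome ACANNTGT, known as an Iroquois binding sequence, and the TATA-box letters TATAAA (searched on both strands) were in none of the 3 stretches. Of all promoters, 6.31% held ACANNTGT and 12.4% held TATAAA. The same 3 promoters were also entirely under H3K4me3 in both WT lists, and H3K27me3 covered the Irx4 promoter alone, over its full length in both lists.

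SUZ12 lay at 6 of 6 Irx genes in every clone. Over all genes the percent with SUZ12 was 22.5 in WT, 26.2 in clone 439 and 27.7 in clone 442, and 21.3 had it in all 3 lists. The peaks were wide. They covered a median of 95.5% of the Irx windows in WT, 99.1% in clone 439 and 99.9% in clone 442, where the median over the 4651 genes with SUZ12 in all 3 lists was 6.09%, 6.93% and 7.31%. At least 90% of the window was under WT SUZ12 at 4 Irx genes (Irx1, Irx2, Irx3 and Irx5) and at 0.631% of all genes. The Irx windows are short, from 8.144 kb at Irx3 to 15.034 kb at Irx4, and the share covered depends on window length.

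**Figure D1:**
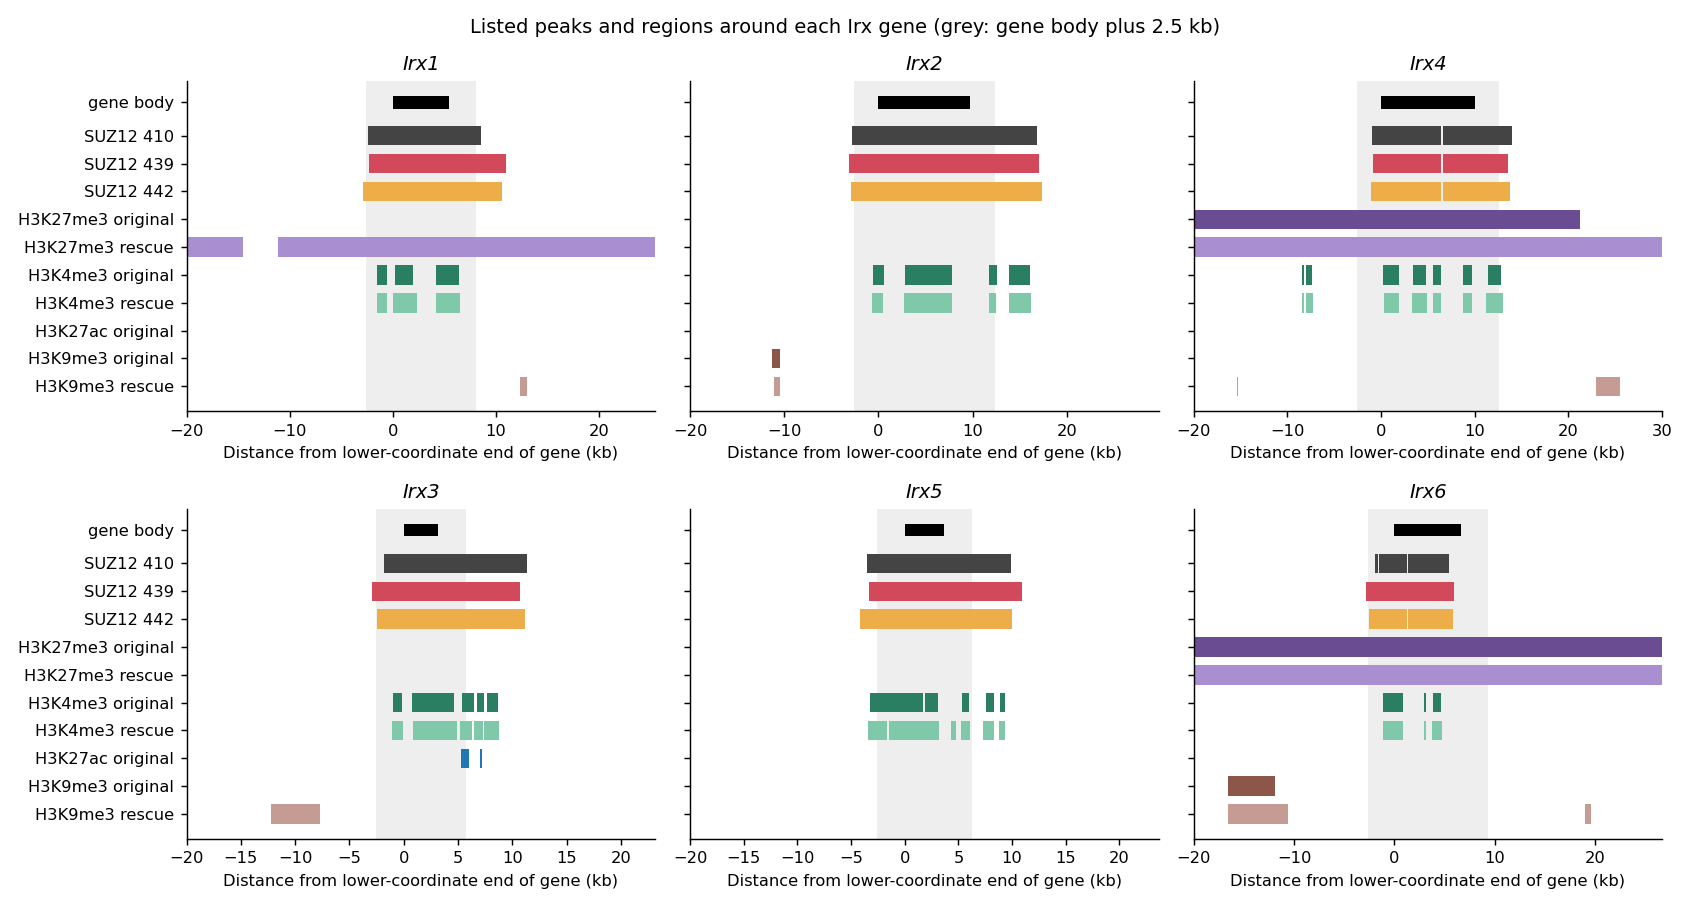
Bars show the listed peaks and regions of the 10 lists (rows) within 20 kb of each Irx gene, by distance in kb from the end of the gene with the lower coordinate, with the gene body in black and the counted window in grey. SUZ12 spans most of each window in all 3 clones, H3K4me3 forms several shorter peaks inside it, and H3K27me3 spans the windows of Irx4 and Irx6 in both lists and of Irx1 in the rescue list.

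Peak length followed the gene rather than the clone, as the plot of SUZ12 by clone shows. Irx2, which is expressed in developing neural, limb and heart tissue, had the longest SUZ12 peak, a single unbroken one of 19.7 kb in WT (chr13:72621574-72641273), 20.138 kb in clone 439 and 20.287 kb in clone 442. Of the 4651 genes with SUZ12 in all 3 lists, 105 had a longer stretch in WT. Irx4, a regulator of ventricular identity in the heart, had a pair of adjoining peaks that summed to 14.684 kb in WT, 14.262 kb in clone 439 and 14.586 kb in clone 442. The break between the pair measured 215, 159 and 182 bp in WT, 439 and 442 and lay at nearly the same place. Irx5, which acts with Irx3 in heart and limb, had 13.401, 14.224 and 14.154 kb in WT, 439 and 442. Irx3 had 13.134, 13.561 and 13.639 kb in the same order. Irx6, a regulator of retinal bipolar cells, had the shortest stretch, with 7.105 kb in 3 peaks in WT, 8.688 kb in 1 peak in clone 439 and 8.275 kb in 2 peaks in clone 442.

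Irx1, which is active in the lung and nervous system, was the gene whose SUZ12 stretch differed most in kb between WT and both mutant clones. It ran over 10.963 kb in WT (chr13:71955825-71966787), 13.344 kb in clone 439 and 13.5 kb in clone 442. The end with the higher coordinate lay 2467 bp further out in clone 439 and 2066 bp further out in clone 442. The stretch was longer in both mutant clones than in WT at 5 of 6 Irx genes, Irx4 being the exception, and at 58.5% of all genes with SUZ12 in the 3 lists. The members' median ratio to WT was 1.05 in each clone, and over all such genes it was 1.08 in clone 439 and 1.13 in clone 442. More peaks were listed in the mutant clones than in WT genome-wide, and their part in these lengths was not tested.

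**Figure D2:**
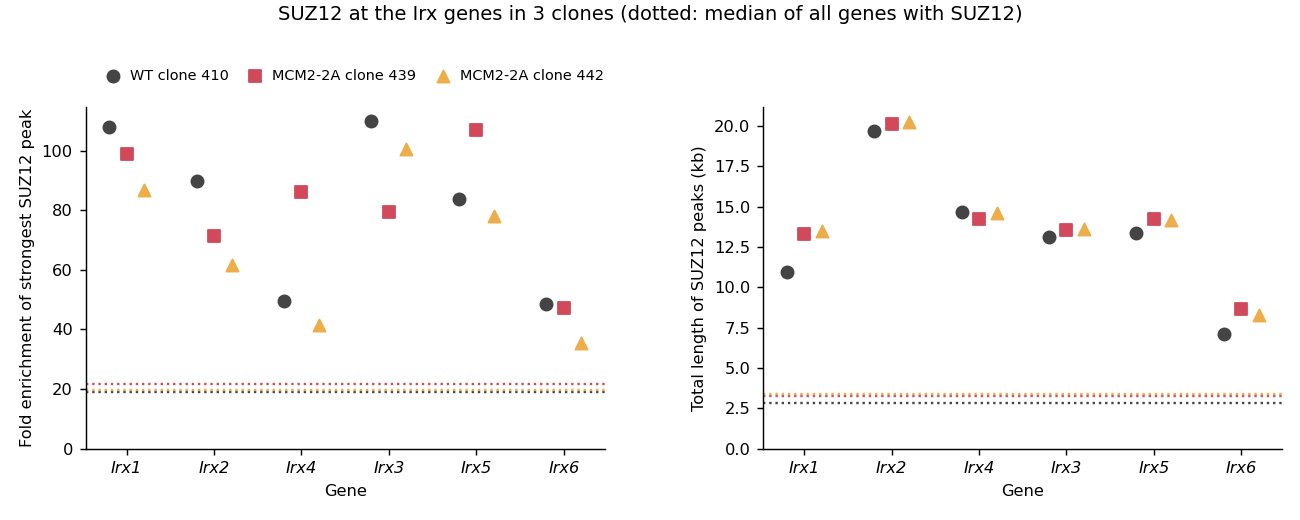
The left panel gives the fold enrichment of the strongest SUZ12 peak and the right panel the total length in kb of the SUZ12 peaks at each Irx gene, 1 point per clone, with dotted lines at the median of the 4651 genes with SUZ12 in all 3 lists. Every point lies above the dotted line of its clone, and the points of Irx4 and Irx6 are the lowest of the 6 genes in WT on the left.

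Peak strength is given as fold enrichment over local background, and each peak was also ranked within its own list, because fold enrichment in different lists depends on depth. Irx3 had the strongest WT peak of the family, with a fold enrichment of 110 in WT, 79.4 in clone 439 and 101 in clone 442. It ranked 43 of 6298 peaks in WT, 210 of 7571 in clone 439 and 3 of 7840 in clone 442. Its summit lay 1788, 1760 and 1763 bp downstream of the start site, nearly the same place in each list. Irx1 reached 108 in WT, 98.9 in clone 439 and 86.9 in clone 442, and ranked 52, 56 and 21. Irx2 reached 89.8, 71.3 and 61.8 and ranked 152, 293 and 209. These 3 genes had lower fold enrichment in both mutant clones than in WT, while the rank of Irx1 and Irx3 in clone 442 was higher than in WT.

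By fold enrichment, Irx5 and Irx4 were above WT in clone 439 and below WT in clone 442. Irx5 had a fold enrichment of 83.9 in WT, 107 in clone 439 and 78.1 in clone 442, with ranks of 207, 24 and 57. Irx4 had 49.4 in WT, 86.1 in clone 439 and 41.6 in clone 442, with ranks of 786, 136 and 798. The WT fold enrichment of both genes thus lay between those of the mutant clones, which was so for 30.3% of genes with SUZ12 in all 3 lists. By rank fraction, where 0 is the weakest and 1 the strongest peak of a list, both genes had higher values in both mutant clones. Irx5 was at 0.967, 0.997 and 0.993 and Irx4 at 0.875, 0.982 and 0.898 in WT, 439 and 442. At Irx4 in clone 442 the rank from the top was nevertheless lower than in WT (798 against 786). Its rank fraction was higher only because that list is longer (7840 against 6298 peaks). The difference at Irx4 came from the peak over its start site, with a summit 345 bp downstream in WT and 306 bp in clone 439. The adjoining peak of Irx4 reached 35.0, 45.3 and 39.2 in WT, 439 and 442. Irx6 had 48.6 in WT, 47.3 in clone 439 and 35.6 in clone 442, and ranked 817, 909 and 1103.

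Counted over the family, the fold enrichment was lower than in WT at 6 of 6 Irx genes in clone 442 and at 4 of 6 in clone 439 (Irx1, Irx2, Irx3 and Irx6). Among all genes with SUZ12 in the 3 lists, 48.5% were lower in clone 442 and 34.0% in clone 439, and 26.1% were lower in both clones, as were 4 Irx genes. Both mutant comparisons use the same WT list. The strongest peak of each list had a fold enrichment of 166 in WT, 145 in clone 439 and 102 in clone 442. The median WT fold enrichment was 86.9 for the Irx genes and 19.0 for all such genes. Genes of like WT strength were not taken as the background, so these counts do not show a trait particular to the Irx genes. The median ratio of mutant to WT was 0.945 in clone 439 and 0.823 in clone 442 for the Irx genes, and 1.12 and 1.01 for all genes. The quartiles of all genes were 0.938 and 1.34 for clone 439, and 0.810 and 1.25 for clone 442. In clone 439 the ratio ran from 0.723 at Irx3 to 1.74 at Irx4, and for clone 442 from 0.688 at Irx2 to 0.931 at Irx5. The median rank fraction of the family was 0.972 in WT, 0.977 in clone 439 and 0.983 in clone 442, against 0.614, 0.680 and 0.694 over all genes with SUZ12 in the 3 lists. The mutant lists are longer than the WT list, which can raise a rank fraction, and the part of list length in these medians was not tested. Counted from the top of the list, Irx1, Irx3 and Irx5 ranked higher in clone 442 than in WT, and Irx2, Irx4 and Irx6 ranked lower. In clone 439, Irx4 and Irx5 ranked higher than in WT, and the other Irx genes ranked lower. Single genes had lower rank fractions than in WT, such as Irx3 in clone 439 (0.993 in WT and 0.972) and Irx6 in clone 442 (0.870 in WT and 0.859).

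**Figure D3:**
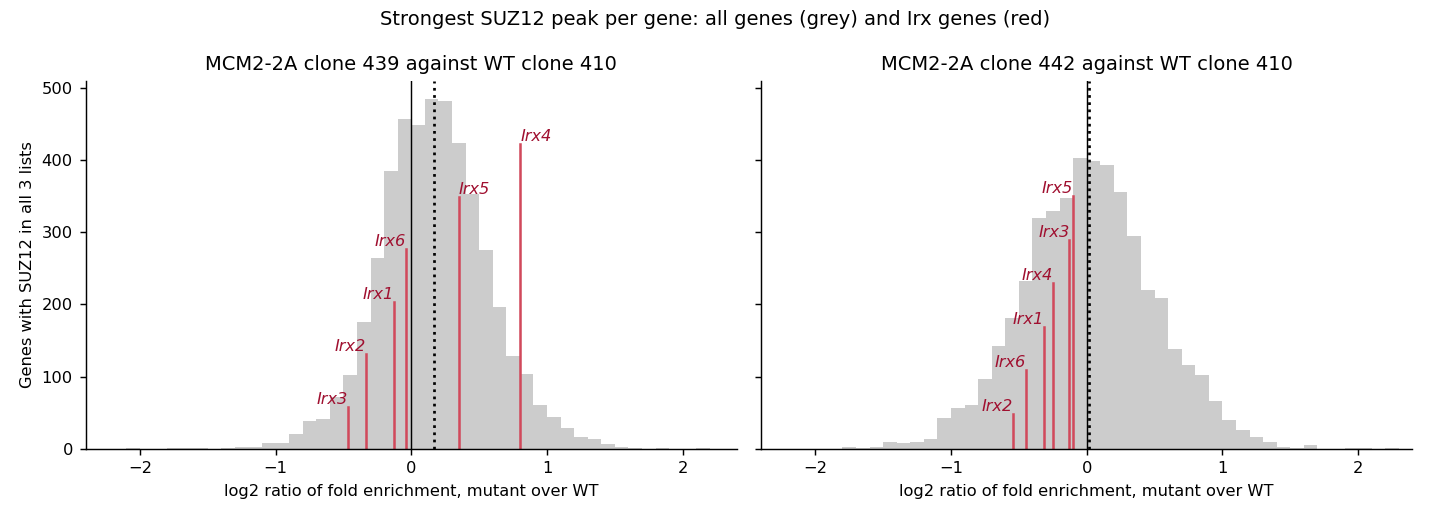
Grey bars count the genes with SUZ12 in all 3 lists by the log2 ratio of their strongest fold enrichment in a mutant clone to that in WT, red lines mark the 6 Irx genes (line height has no meaning), the solid line is equality and the dotted line the median of all genes. In clone 442 all 6 red lines lie left of equality, and in clone 439 Irx4 and Irx5 lie right of it; 2 genes per panel lie outside the axis.

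H3K27me3, the mark placed by PRC2, was listed at fewer Irx genes than SUZ12. In the original WT list it was present at 2 of 6, Irx4 and Irx6, and at 40.1% of all genes. In the rescue WT list it was present at 3 of 6, Irx1, Irx4 and Irx6, and at 59.1% of all genes. At Irx4 the region ran over 41.5 kb in the original list (chr13:73239300-73280830) and 105 kb in the rescue list. At Irx6 it ran over 66.5 kb (chr8:92635120-92701570) and 135 kb. At Irx1 a region of 46.6 kb (chr13:71947120-71993700) was in the rescue list alone. Where a region was present it covered the whole window and all of the SUZ12 peaks. These regions ranked high by the unnamed strength value of their lists, 711 and 1011 of 41869 for Irx4 and Irx6 in the original list and 469, 732 and 1001 of 63473 for Irx4, Irx1 and Irx6 in the rescue list.

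Irx2, Irx3 and Irx5 had a region in neither H3K27me3 list, although their WT SUZ12 peaks ranked 152, 43 and 207. Among the 4933 genes with WT SUZ12, H3K27me3 was listed at 77.5% in the original and 89.2% in the rescue experiment, and 5.01% (247 genes, 3 of them Irx genes) had it in neither. The strongest WT peak of Irx5, the lowest of the 3, was 83.9, and 22 of the 248 genes at or above that value had no region in either list. Among WT SUZ12 peaks in 4 groups of rising fold enrichment, 12.1%, 9.91%, 9.66% and 13.3% lay in neither list. The absence of a region from a list does not show that the mark was absent, since the lists give no signal outside their regions.

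The stretches without an H3K27me3 region around these genes differed in length. In the rescue list 616 kb around Irx2 held no region, and 53 of the 63452 stretches between regions genome-wide were that long or longer. The stretch was 268 kb around Irx3 and 244 kb around Irx5, where the genome-wide median was 7.449 kb. In the original list the stretches were 109 kb around Irx2, 248 kb around Irx3, 82.8 kb around Irx5 and 362 kb around Irx1, with a median of 26.3 kb. The original and rescue lists, both of WT, differed within these stretches. The original list held regions inside the 616 kb stretch of the rescue list, one of them 72.6 kb long. The rescue list held a region of 46.6 kb over Irx1, inside the 362 kb stretch of the original list. A gene outside regions is more likely to fall in a long stretch than in a short one, so the share of bases is the closer background. In the original list, 50.6% of the bases between regions lay in stretches at least as long as that around Irx2, 61.9% for Irx5, 19.1% for Irx3 and 10.4% for Irx1. In the rescue list the values were 6.42% for Irx2, 14.1% for Irx3 and 15.9% for Irx5. The nearest region to the Irx3 window was 119 kb away in the original list and 55.2 kb away in the rescue list. For Irx5 the nearest was 33.4 and 32.4 kb away, and for Irx2 it was 20.5 and 104 kb away. Widening the windows to 10000 bp on both sides left the count in the original list at 2.

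H3K4me3 was listed at 6 of 6 Irx genes in both WT experiments, and at 78.1% of all genes in the original and 79.4% in the rescue list. It formed several peaks per gene inside the SUZ12 stretch, between 3 and 5 in the original list. Irx5 had the strongest, with a fold enrichment of 93.4 over 4.893 kb in the original list and 74.5 over 4.708 kb in the rescue list. In both lists the summit of this Irx5 peak lay outside the gene body, which begins at 92357796. No start site was matched for Irx5, so the peak cannot be placed relative to it. Irx3 had 58.8 and 50.8, and its strongest peak summit lay 189 and 207 bp upstream of the start site. Irx2 had 44.3 and 52.8 in peaks of 4.982 and 5.089 kb that spanned the matched start site, which lies inside its gene body. The Irx2 peak over the lower-coordinate end of the gene body reached 15.0 and 20.5. Irx4 had 41.4 and 42.8, Irx6 had 36.8 and 44.1, and Irx1 had 34.4 and 37.0. The medians over all single peaks of the lists were 9.63 and 8.93, while the Irx values are the strongest peak of each gene. By the strongest peak per gene, the 11 other TALE genes ran from 49.8 (Meis2) to 107 (Tgif2) in the original list. The Irx genes are thus not marked out by strong H3K4me3. In both lists the 3 genes with the strongest H3K4me3 peaks, Irx5, Irx3 and Irx2, were those with no H3K27me3 region in either list. By share of the window under H3K4me3 this split did not hold. Irx1 exceeded Irx2 in the original list (47.1% against 45.1%) and in the rescue list (53.5% against 46.3%).

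H3K4me3 covered between 26.3% of the window at Irx6 and 69.2% at Irx5 in the original list, and between 27.6% and 79.3% at the same genes in the rescue list. By bases of the WT SUZ12 stretch, H3K4me3 of the original list lay over 58.5% at Irx5, 56.9% at Irx3, 46.9% at Irx2, 45.1% at Irx1, 43.2% at Irx6 and 42.5% at Irx4. With H3K4me3 of the rescue list, Irx1 (51.2%) lay above Irx2 (47.6%). H3K4me3 and H3K27me3 together, the bivalent state, were listed at 2 of 6 Irx genes in the original experiment and 3 of 6 in the rescue experiment, against 34.0% and 48.0% of all genes. At Irx4 and Irx6 an H3K4me3 peak itself lay inside the H3K27me3 region.

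**Figure D4:**
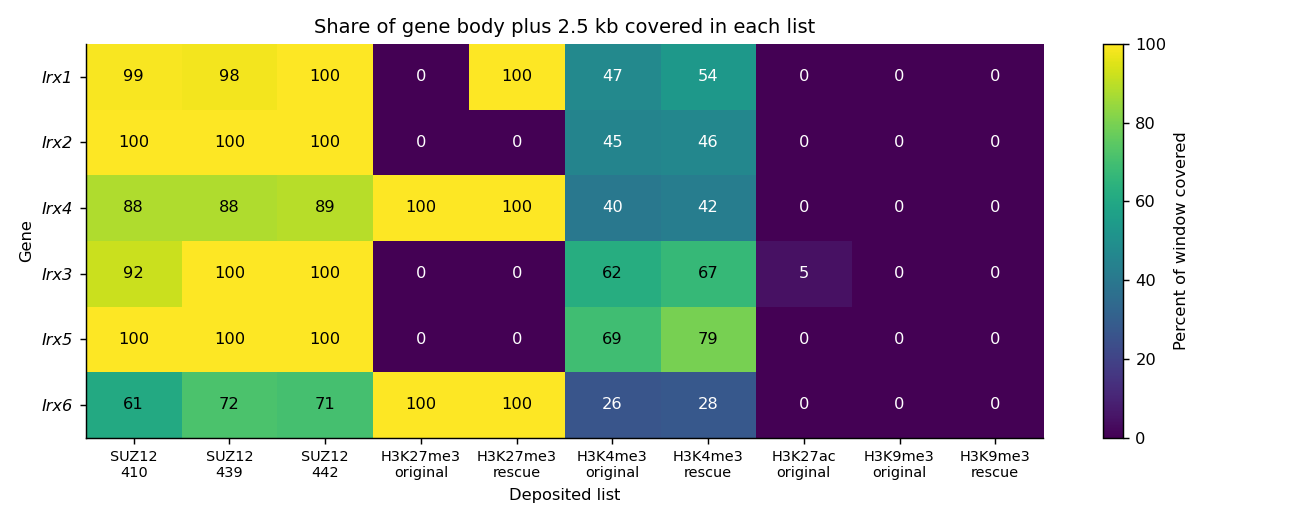
Each cell gives the percent of the window (gene body plus 2500 bp on both sides) covered by the entries of 1 list (columns) at 1 Irx gene (rows), coloured from 0 to 100. The SUZ12 columns are high at every gene, the H3K27me3 columns are at 0 or 100, and the H3K27ac and H3K9me3 columns are at 0 apart from Irx3 in H3K27ac.

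H3K27ac, the mark of active promoters and enhancers, was listed at 1 of 6 Irx genes, and at 66.1% of all genes and 69.0% of genes with WT SUZ12. The gene was Irx3, with a peak of 0.759 kb and a fold enrichment of 4.33, near the list median of 3.98. It lay 2444 bp upstream of the start site (chr8:91803780-91804538), across the edge of the window, and covered 4.60% of it. The lncRNA gene Irx3os overlaps this window, and the peak cannot be assigned to one gene or the other. At the other 5 genes the nearest H3K27ac peak was between 33.6 kb (Irx4) and 205 kb (Irx1) from the window. H3K9me3 was listed at 0 of 6 Irx genes in both experiments, at 33.8% of all genes in the original and 58.7% in the rescue list. The nearest H3K9me3 regions in the rescue list were between 4.396 kb (Irx1) and 25.9 kb (Irx5) from the windows. The H3K27ac and H3K9me3 counts depend on window length, so they do not by themselves show depletion at the Irx genes.

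Each cluster was a set of SUZ12 stretches far apart, which together covered a small part of its span. No other protein-coding gene of the annotation lay between the outermost members. Irx1 and Irx2 are 661 kb apart, Irx2 and Irx4 625 kb, Irx3 and Irx5 556 kb, and Irx5 and Irx6 313 kb. In WT, SUZ12 covered 3.47% of the 1316.39 kb span of the chromosome 13 cluster and 4.02% of the 887.446 kb span of the chromosome 8 cluster, and 0.673% of the length of all chromosomes. Between the genes, 1 SUZ12 peak was listed in each cluster, and both were found in all 3 clones.

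By fold enrichment, the peak between Irx5 and Irx6 was within the range of those at the genes. In each clone it was shorter than the SUZ12 stretch of any Irx gene. It lay 98.4 kb from Irx5 (chr8:92459836-92461852), with a fold enrichment of 87.8 in WT, 87.4 in clone 439 and 57.3 in clone 442. Its length was 2.017 kb in WT, 1.951 kb in clone 439 and 4.377 kb in clone 442, so the clone with the lowest fold enrichment had the longest peak. It overlapped an H3K4me3 peak with a fold enrichment of 48.9 and lay within an H3K27me3 region of 40.9 kb in the original list, which was not in the rescue list. The peak between Irx2 and Irx4 lay 181 kb from Irx2 (chr13:72815640-72817394) and was weak, at 4.29 in WT, 4.98 in clone 439 and 7.65 in clone 442. It overlapped H3K4me3 and H3K27ac, as well as an H3K27me3 region of 72.6 kb in the original list.

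H3K27me3 covered 19.4% of the chromosome 13 span in the original list, against 13.2% of that chromosome as a whole, and 43.0% in the rescue list, against 35.5%. It covered 30.5% of the chromosome 8 span in the original list, against 16.0% of the chromosome, and 41.8% in the rescue list, against 39.2%.

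**Figure D5:**
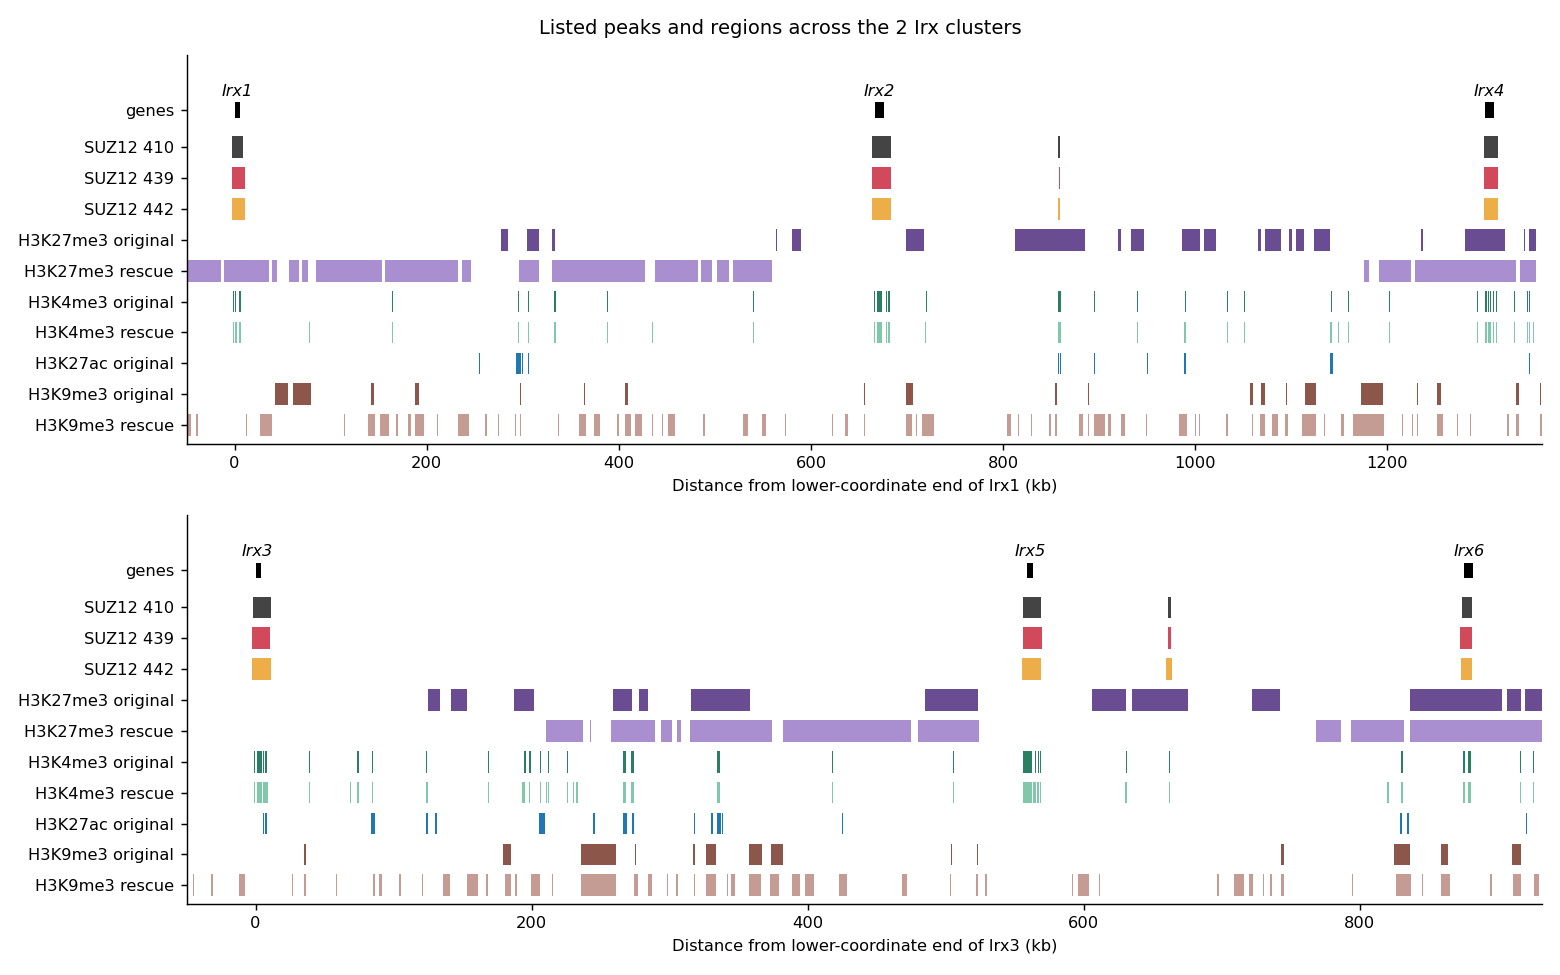
Bars show the entries of the 10 lists (rows) across the clusters of Irx1, Irx2 and Irx4 (top) and of Irx3, Irx5 and Irx6 (bottom), by distance in kb from the lower end of the first gene, with the Irx genes in black; bars under 1 kb, and genes under 4 kb, are drawn at those widths. SUZ12 stands over the genes and at 1 place between genes in each cluster, while H3K27me3 also covers sequence between the genes and no region is listed around Irx2, Irx3 and Irx5.

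Other TALE homeobox genes showed SUZ12 less uniformly. Of 11 examined, 6 had SUZ12 in all 3 clones: Meis1, Meis2 and Meis3, cofactors of Hox proteins, and Pbx3, Pknox2 and Mkx. Their strongest WT fold enrichment ran from 5.50 at Meis3 to 84.7 at Meis2. The other 5 had SUZ12 in no clone, Tgif1 and Tgif2 among them. H3K27ac was listed at 9 of the 11, and H3K9me3 of the original list at 5 of the 11, where the Irx genes had 1 and 0 of 6. H3K27me3 was listed at 4 of the 11 in the original list and 7 of the 11 in the rescue list. Window lengths differ between these genes, and a longer window can hold more peaks.

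The genes most like the family were found by the Euclidean distance between the shares of the window covered in the 10 lists, in percent, leaving out genes whose window overlaps an Irx window. Irx1 was closest to Uncx, at a distance of 2.04. Irx2 was closest to Foxc2 (3.73), Irx4 to Hmx3 (5.95) and Irx6 to Pitx3 (8.39). Irx3 and Irx5 were both closest to Foxa2, at 11.5 and 22.6. All are genes of transcription factors of the homeobox or forkhead type. Foxa2 and Foxc2, like Irx2 and Irx5, had SUZ12 over the whole window in each clone and no listed H3K27me3, and Irx3 differed in having 91.9% of its window under SUZ12 in WT and 99.9% in clone 442. Between the Irx genes themselves, the closest pair was Irx3 and Irx5 at 16.7, followed by Irx2 and Irx3 at 28.7, Irx2 and Irx5 at 40.9, and Irx4 and Irx6 at 41.8. Irx5 and Irx6, neighbours on chromosome 8, were the farthest apart, at 166. The nearest to the median of the family were Foxl2, Atoh1, Foxc2, Barx1 and Lhx1, all at distances between 50.1 and 50.4. That value is set by the rescue H3K27me3 list, in which the median of the family falls midway between covered and not covered.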

How the data were processed

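The members and gene lists were chosen with earlier results of these data known. Native ChIP on MNase-digested chromatin was used for histone marks and crosslinked, sonicated chromatin for SUZ12, both with a Drosophila spike-in. Tools named in the submitters' processing notes were MACS2 2.1.0, BWA 0.7.15, cutadapt 2.5 and Picard 2.20.7, with the mm10 build. The authors deposited SUZ12, H3K4me3 and H3K27ac peaks with a score, a fold enrichment (ratio), and −log10 q-values, used as an alternative rank. They deposited H3K27me3 and H3K9me3 regions with an unnamed strength value (a score of unknown scale), used here only to rank regions, and the sources used here do not name their caller. Replicates were combined by the authors, and depth is unknown.

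Genes came from RefSeq (GRCm38.p6). Overlaps were computed with Python 3.11.15 and pandas 2.3.3 and were checked on simulated intervals. Positions count from 1. Genes were named by a rule: the 6 members, 11 other TALE homeobox genes (the rule also holds an item not reported here), protein-coding neighbours within 500 kb, and the genes most like the members; 8 ESC and 8 differentiation markers served as a check. Alternatives changed the window, the overlap, the threshold, the measure of strength, the number of peaks and the experiment.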

Additional observations from a re-analysis of the deposited data

How the results depend on the processing

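Of 53 alternative values, 43 stayed within 1.5 times the count reported or within the 95% Wilson interval of the value reported, and 10 did not. That interval took the bases of the median window, or the peaks of the list, as its trials. It therefore measures no spread between genes or replicates and served only as a fixed margin. The H3K27me3 count of 2 in the original and 3 in the rescue list fell within the rule for counts. SUZ12 was listed at 6 of 6 Irx genes in each clone under every window, overlap, score and peak number tried. The score and peak number could not lower this count. Each of these peaks scored 1000 against a cutoff of 800, and the lowest best rank was 1103, within the 6298 peaks kept. Such alternatives are among the 43 that stayed. The median share of the window under SUZ12 was 100% in each clone for the gene body with no flank, and 52.8% in WT, 55.5% in clone 439 and 55.9% in clone 442 with 10000 bp on both sides, since the SUZ12 stretches end within that flank. Ranked by −log10 q in place of fold enrichment, the median rank fraction was 0.976 in WT and 0.976 in clone 442, and clone 442, which lay above clone 439 by fold enrichment, lay below it. The H3K27ac count fell to 0 for the gene body with no flank and to 0 when at least 50% of the peak had to lie inside the window, as the Irx3 peak crosses its edge. Replicates could not be left out in turn, because the lists combine them. No paired analysis was possible because each list holds the combined replicates of its group.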

Other observations

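No other protein-coding gene was within 50 kb of an Irx gene, and 19 lay within 500 kb of the clusters, Ndufs6 being the nearest on chromosome 13 and Fto on chromosome 8. SUZ12 was listed in all 3 clones at 3 of the 19, and at 21.3% of all genes. The 3 were Slc6a3, the dopamine transporter, Slc6a2, the noradrenaline transporter, and Slc12a7, a potassium-chloride cotransporter. Slc6a2 had a fold enrichment of 59.9 in WT, 36.8 in clone 439 and 51.2 in clone 442. Slc6a3 had 11.4, 14.0 and 13.7, and Slc12a7 had 8.37, 10.8 and 9.01. The windows of Mmp2, a matrix metalloproteinase, and Lpcat2 had SUZ12 in both mutant clones and not in WT, with a strongest peak of 9.25 in clone 439 and 8.35 in clone 442 that had the same values at both genes. The nearest of the 19 to each cluster, Ndufs6 at 50.3 kb and Fto at 130 kb, had SUZ12 in no clone.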
